A study of Mus musculus with 2 samples.

Results

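The respiratory chain of the inner mitochondrial membrane was examined through 106 of the 31053 genes counted in single cells of mouse bone marrow. Members were taken by symbol alone: the nuclear genes starting with Ndufa, Ndufb, Ndufc, Ndufs, Ndufv, Uqcr, Cox4, Cox5, Cox6, Cox7, Cox8 or Atp5 together with Sdha, Sdhb, Sdhc and Sdhd, and the genes starting with mt-. The 93 nuclear genes comprised 36 symbols of complex I, 8 complex I assembly factors that share the Ndufa prefix (Ndufaf), 4 of complex II, 8 of complex III, 20 of complex IV (Ndufa4 and Ndufa4l2 among them) and 17 of the ATP synthase. The 13 mt- genes are the protein genes of the mitochondrial genome: 7 of complex I, 1 of complex III, 3 of complex IV and 2 of the ATP synthase.

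Cells came from hind limb marrow of C57BL/6 mice and were sorted as Lineage-, c-Kit+ and Sca1-, a gate called LKS- that holds myeloid, erythroid and megakaryocyte progenitors. Both groups consist of 1 library each. Control pooled 2 animals, 1 Runx1f/f and 1 Runx1f/-, so the germline loss of 1 Runx1 allele is present in part of the Control cells. For the library labelled Runx1 KO, no source used here gives the number of mice, the deleted part of Runx1 or the Cre driver. One label calls the cells embryonic. The tissue and extraction labels were followed.

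In oxidative phosphorylation, complexes I and II pass electrons to ubiquinone, complex III passes them on to cytochrome c, and complex IV reduces oxygen. Complexes I, III and IV pump protons, and the ATP synthase uses the resulting gradient to make ATP. Complex II is encoded in the nucleus alone, whereas the other complexes combine nuclear subunits with a core made inside the mitochondrion. Erythroid precursors lean on mitochondria for heme and iron-sulfur cluster synthesis and lose them as reticulocytes mature, and mature neutrophils hold few.

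Levels are unique molecular identifiers (UMIs) per 1000000 UMIs of the same population, written CPM. A UMI tags the 3′ end of 1 RNA molecule, so a CPM is not divided by transcript length and levels of different genes are compared on that scale. Ratios are log2 of (CPM + 10), library labelled Runx1 KO over Control, and pairs of values are given with Control first. Counts of genes at least 1.5-fold apart use that scale, which draws low levels together. With 1 library a group there is no test of a difference between genotypes: the 95% intervals below cover counting error only, and doublets were neither called nor removed.

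The 2 libraries held 6906 and 7889 cells with a median of 21593.5 and 16092 UMIs per cell, and 13 cell barcodes occurred in both. Cells carry 1 of 18 classes that the authors deposited, most of them named after a gene. The 6 classes with at least 200 cells in each library were compared: Car1 (2210 and 3003 cells), Pf4 (222 and 1782), Ly86 (1326 and 553), CD34 (1076 and 679), Gstm1/CD63 (621 and 657) and Hba-a2 (294 and 318). The summed level of 8 megakaryocyte genes was 6308 and 6258 CPM in the Pf4 class and that of 10 erythroid genes was 4780 and 5798 CPM in the Hba-a2 class. The first list includes Pf4 itself and the second globin genes. These sums are therefore no independent check of those class names, and they leave the other class names unchecked. Runx1 itself was at 143 CPM in Control and at 361 CPM in the library labelled Runx1 KO, and it was higher there in each of the 6 classes. That direction goes against the label if taken at face value. A 3′ tag outside the deleted part does not check a deletion, so every direction below is one between labelled libraries.

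Among the 6 compared classes and the classes Fcnb and Ltf, the chain's summed level was highest in the late erythroid class Hba-a2 and lowest in the Ltf class of both libraries. Nuclear members together took 3.49% of UMIs in the Hba-a2 class of Control and 3.12% in that of the library labelled Runx1 KO. The Gstm1/CD63 class held 3.03% and 2.78%, Fcnb 2.99% and 2.93%, Ly86 2.88% and 2.90%, Pf4 2.71% and 2.34%, Car1 2.61% and 2.36%, and CD34 2.50% and 2.29%. The Ltf class, named after a late neutrophil granule gene and measured on only 50 and 221 cells, was lowest at 1.56% and 1.45%. The mt- members took 5.85% and 6.69% in Hba-a2, 4.83% to 5.38% in the 5 other compared classes and Fcnb, and 1.90% and 1.91% in Ltf. The median Ltf cell was below these sums, at 1.27% and 1.20% for nuclear members and 0.868% and 0.942% for mt- members. Some classes of few cells had a higher mt- share in Control, such as Siglech at 8.07% over 5 cells.

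**Figure D1:**
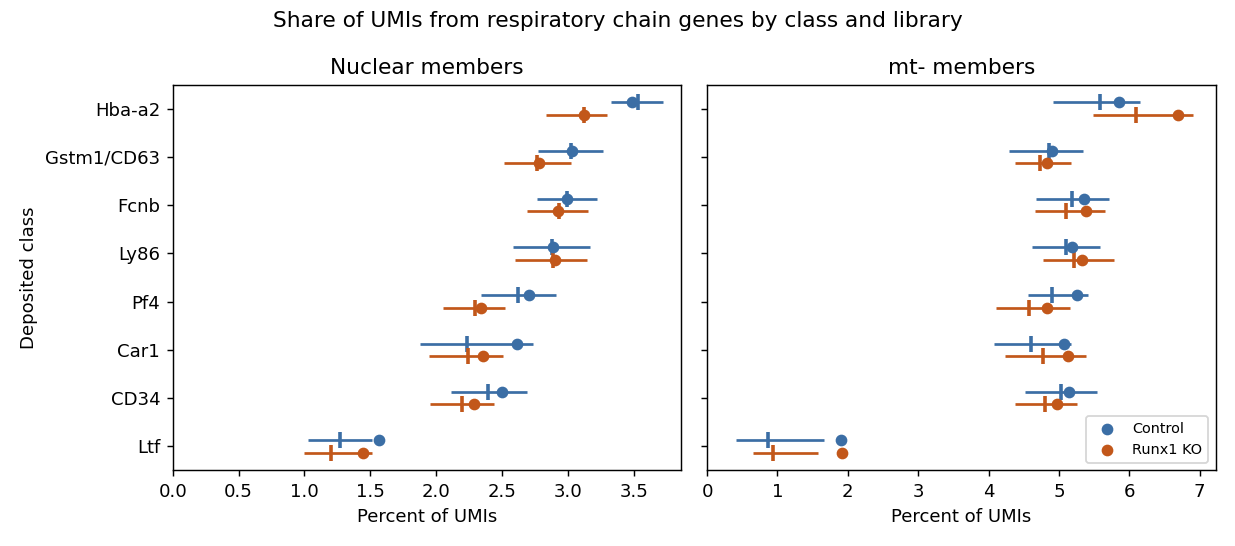
Percent of UMIs from the nuclear members (left) and the mt- members (right) in 8 of the deposited classes, Control in blue and the library labelled Runx1 KO in orange. Filled circles give the share of the summed UMIs, the bar the quartiles over cells and the tick their median. Of the classes drawn, Hba-a2 has the highest and Ltf the lowest share in both panels. In Car1 the summed nuclear shares differ (2.61% and 2.36%) while the medians over cells nearly coincide (2.23% and 2.24%).

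Of 83 nuclear members measured in at least 1 compared class of Control (at least 30 CPM and 100 UMIs), 57 were highest in the Hba-a2 class, against 35.3% of all genes measured, and 44 were lowest in the CD34 class, against 9.52% of all genes. In the library labelled Runx1 KO these counts were 49 (34.8% of all genes) and 35 (7.85%). Against the Car1 class, the other erythroid class, the median nuclear member of Hba-a2 was higher by 0.39 on the log2 scale in Control and 0.42 in the other library, with 15 of 83 and 23 of 82 members at least 1.5-fold higher (8.22% and 11% of all genes measured) and none at least 1.5-fold lower (11.5% and 13.4%). On the log2 scale of CPM + 10, the widest such gaps in Control were those of Ndufa5, a complex I accessory subunit, at 0.71, Atp5g3, which encodes the membrane ring of the ATP synthase, at 0.71, and Uqcr11, a small complex III subunit, at 0.70. Cox7a2l went the other way, at a ratio of CPM of 0.766. Median depth was 51294.5 and 37146 UMIs per cell in Hba-a2 and 15393.5 and 14621 in Car1. In cells of 40000 or more UMIs, nuclear members took 3.46% and 3.16% of UMIs in Hba-a2 and 3.18% and 2.81% in Car1. In cells under 10000 UMIs they took 3.45% and 1.93% in Hba-a2 and 1.96% and 1.89% in Car1. The part of depth in these gaps was not tested.

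Some members hardly varied between classes. Folds between classes are of CPM + 10, for members with a mean of at least 100 CPM. Over the 6 compared classes of Control, Ndufa7 differed by 1.12-fold between its highest class (312 CPM in Gstm1/CD63) and its lowest (277 CPM in CD34), Ndufa6 by 1.13-fold, Atp5g2 by 1.15-fold and Atp5l by 1.21-fold. Over all 83, the median nuclear member differed by 1.49-fold and the median gene by 1.62-fold. Cox6b2 differed most, by 5.69-fold, followed by Atp5g1 at 2.09-fold (1196 CPM in Hba-a2, 566 CPM in CD34), Uqcrfs1, the Rieske iron-sulfur protein of complex III, at 2.08-fold (257 CPM in Hba-a2, 118 CPM in Pf4), Cox6a1 at 2.05-fold (487 CPM in Hba-a2, 233 CPM in CD34), Uqcr11 at 2.05-fold and Sdhd at 1.94-fold. All 6 of these most variable members were highest in Hba-a2.

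Between the Fcnb and Ltf classes, both named after neutrophil granule genes, nearly every member was lower in Ltf. The median nuclear member, Ltf over Fcnb, was at -0.90 in Control and at -0.97 in the library labelled Runx1 KO. The median of all genes measured was also below 0, at -0.50 and -0.56, with 30.8% and 30.9% of genes above 0. Of the nuclear members, 65 of 81 and 66 of 80 were at least 1.5-fold lower, against 46.8% and 49.2% of all genes measured. None was at least 1.5-fold higher (14.5% and 18.1%). The mt- members were lower still, with a median of -1.62 in both libraries and 12 of 12 measured at least 1.5-fold lower. In Control, mt-Cytb, the mitochondrial subunit of complex III, stood at 5405 CPM in Fcnb and 1529 CPM in Ltf, and mt-Co1, the catalytic subunit of complex IV, at 7260 and 3687 CPM. In Control the complex I assembly factor Ndufaf3 (ratio 1.24) and the complex I subunit Ndufb7 (1.02) were the nuclear members above 0, and in the library labelled Runx1 KO these were at 0.769 and 0.974 and the complex I subunit Ndufv3 (1.04) was the member above 0. Median depth was 26072.5 UMIs per cell in Fcnb and 11545 in Ltf of Control, and its part in these ratios was not tested.

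Between the libraries, nuclear members were slightly lower in the one labelled Runx1 KO. Over all cells their share was 2.78% and 2.53% of UMIs, and the median log2 ratio was -0.12 (counting intervals of the members, medians of their bounds, -0.14 to -0.10) over 81 measured members, against 0.00 for the 4600 genes measured. Of the 81, 73 were below 0, where 49.8% of all genes were. None reached a 1.5-fold difference over all cells in either direction, against 4.28% of genes at least 1.5-fold higher and 1.65% lower. In bulk sums of this kind, fewer cells of a type and less RNA per cell cannot be told apart, so the classes were taken 1 by 1.

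The same sign was seen in 5 of the 6 classes. Median log2 ratios of the nuclear members were -0.15 in Car1, with 74 of 83 below 0 (52.1% of all genes), -0.19 in Pf4, with 68 of 80 (51.7%), -0.10 in CD34, with 69 of 80 (50.5%), -0.09 in Gstm1/CD63, with 65 of 81 (43.6%), and -0.14 in Hba-a2, with 75 of 83 (53.6%). In Ly86 the median was 0.03, with 34 of 80 below 0 (51.1%) and medians of the members' bounds of -0.02 to 0.07. Among the 80 nuclear members measured in all 6 classes, 25 were below 0 in each (31.3%, against 14.2% of 3336 genes), and 2, Cox7a2l and Ndufaf3, were above 0 in each (10.2% of genes).

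**Figure D2:**
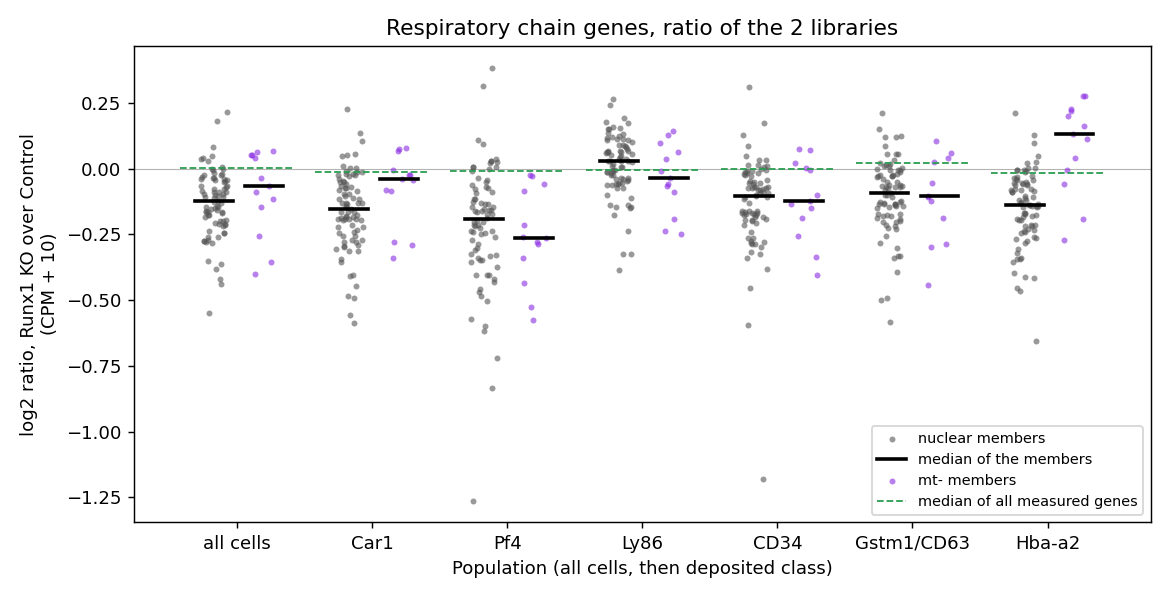
Log2 ratio (CPM + 10) of each measured member, library labelled Runx1 KO over Control, over all cells and in the 6 compared classes, with nuclear members in grey and mt- members in purple. Black bars are medians of the members and green dashes the median of all measured genes. Nuclear medians lie between -0.19 in Pf4 and 0.03 in Ly86, and the mt- median is above 0 in Hba-a2 (0.13).

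Nuclear subunits of every complex summed to less in the library labelled Runx1 KO. Over all cells, the summed nuclear subunits of complex I were at 7739 and 7151 CPM (ratio 0.924), complex II at 544 and 493 CPM (0.906), complex III at 2818 and 2506 CPM (0.889), complex IV at 7786 and 6962 CPM (0.894) and the ATP synthase at 8551 and 7906 CPM (0.925). Each ratio's counting interval was below 1. In the Ly86 class the same sums had ratios of 1.03, 1.00, 1.02, 0.979 and 1.01 in that order, and in Pf4 of 0.880, 0.856, 0.866, 0.863 and 0.860.

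In complex I, 31 of 36 subunits were below 0 over all cells. Ndufa3, a small membrane subunit, was at 173 and 132 CPM and was lower in the library labelled Runx1 KO in all 6 classes, from 189.95 and 149.6 CPM in Ly86 (log2 ratio -0.32) to 241 and 154 CPM in Pf4 (-0.62). Ndufs8, a core subunit, was nearly level at 131 and 134 CPM. Ndufa8 was at 194 and 205 CPM over all cells and reached 194 and 231 CPM in Ly86 (log2 ratio 0.24). Among the assembly factors, Ndufaf4 was at 77.7 and 58.8 CPM, and at 77.8 and 43.3 CPM in Pf4 (log2 ratio -0.72). Ndufaf3 was at 33.6 and 39.5 CPM, close to the minimum level used here, and overlaps the 3′ end of its neighbour Impdh2 on the other strand, so its value is uncertain.

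All 4 subunits of complex II, the succinate dehydrogenase that also serves the citrate cycle, were below 0 over all cells. Sdha, the flavoprotein, was at 133 and 127 CPM, Sdhb, the iron-sulfur subunit, at 137 and 127 CPM, and the membrane anchors Sdhc and Sdhd at 87.0 and 79.8 CPM and at 187 and 160 CPM. Sdhd had the lowest class ratio of the 4, at 303 and 218 CPM in Hba-a2 (log2 ratio -0.45). Sdhc was higher in Gstm1/CD63 (70.5 and 77.8 CPM), and Sdhb (156 and 174 CPM) and Sdhd (181 and 188 CPM) were higher in Ly86. In complex III all 8 nuclear members were below 0 over all cells, led by Uqcr11 at 471 and 360 CPM, which was lower in all 6 classes. Uqcrfs1 was at 174 and 161 CPM over all cells and on the other side in Ly86, at 182 and 207 CPM.

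Of the complex IV subunits, Cox7c was at 721 and 536 CPM and lower in all 6 classes, from 737 and 624 CPM in Ly86 (log2 ratio -0.24) to 666 and 467 CPM in Pf4 (-0.50). Cox4i1, the main regulatory subunit, was nearly level at 964 and 961 CPM and at 1105 and 1227 CPM in Ly86 (0.15). Cox7a2l, counted here with the Cox7a family (chr17:83501918-83517330, minus strand, GENCODE M21 on GRCm38), had the highest ratio of the nuclear members over all cells. Its level was 338 and 394 CPM over all cells, 360 and 423 CPM in Car1, 346 and 455 CPM in Pf4, 323 and 329 CPM in Ly86, 373 and 466 CPM in CD34, 294 and 342 CPM in Gstm1/CD63 and 276 and 286 CPM in Hba-a2. Within the Cox7a family its share of UMIs was 46.4% and 53.7% in Car1 and 45.5% and 54.7% in Pf4, while Cox7a2 made up nearly all the rest. In Ly86 that share was 41.5% in both libraries. The sign was not stable in the classes near 0: Cox7a2l was below 0 in Ly86 less the median of genes of like length, and in Hba-a2 with thinned cells or as a mean over cells.

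Among ATP synthase genes, Atp5k, which encodes the e subunit at the dimer interface (chr5:108433244-108434448, minus strand), was the lowest over all cells at 326 and 220 CPM (ratio 0.674, counting interval 0.665 to 0.684). It was at 292 and 195 CPM in Car1, 360 and 197 CPM in Pf4, 352 and 279 CPM in Ly86, 272 and 177 CPM in CD34, 365 and 257 CPM in Gstm1/CD63 and 440 and 276 CPM in Hba-a2. Control was the higher library in every class, with log2 ratios from -0.33 to -0.84. Atp5f1, which encodes the b subunit of the peripheral stalk, was at 559 and 578 CPM.

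The 3 Atp5g genes encode the same mature c subunit with different import sequences, and their ratios differed. Atp5g1 was at 744 and 638 CPM over all cells and at 783 and 590 CPM in Car1 (log2 ratio -0.40), but at 695 and 738 CPM in Ly86. Atp5g2 was at 763 and 762 CPM over all cells. Atp5g3 was at 338 and 327 CPM, with 343 and 390 CPM in Ly86 (0.18) and 536 and 471 CPM in Hba-a2 (-0.18). As a share of the family in Car1, Atp5g1 made up 41.9% and 35.2% and Atp5g2 40.8% and 47.1%.

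Past the 1.5-fold mark there were only members on the lower side: 1 in Car1 (Cox6b2; 1.95% of all genes), 5 in Pf4 (Cox6b2, Atp5k, Ndufaf4, Ndufa3 and the complex I assembly factor Ndufaf2; 3.38%), 2 in CD34 (Cox6b2 and Atp5k; 1.37%), 1 in Hba-a2 (Atp5k; 0.751%) and none in Ly86 (0.817%) or Gstm1/CD63 (0.7%). No nuclear member was at least 1.5-fold higher in Car1 (3.67% of all genes), Pf4 (7.15%), Ly86 (2.19%), CD34 (2.85%), Gstm1/CD63 (1.38%) or Hba-a2 (1.8%).

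Cox6b2, known as the testis form of the intermembrane subunit VIb of complex IV (chr7:4751792-4753094, minus strand), had the widest range of any member. Its level was 188 and 121 CPM in Car1, 58.1 and 18.4 CPM in Pf4, 46.1 and 33.0 CPM in Ly86, 74.6 and 27.3 CPM in CD34, 58.4 and 35.7 CPM in Gstm1/CD63 and 309 and 331 CPM in Hba-a2. Control was higher in 5 classes, most of all in Pf4 (log2 ratio -1.26, 254 and 462 UMIs) and CD34 (-1.18), whereas Hba-a2 was at 0.10 with a counting interval of the ratio of 1.03 to 1.12. Its ubiquitous partner Cox6b1 was at 491 and 429 CPM in Car1 and at 713 and 599.9 CPM in Hba-a2. As a share of the pair, Cox6b2 made up 27.7% and 22.1% in Car1, 30.2% and 35.6% in Hba-a2, 10.2% and 4.26% in Pf4 and 7.52% and 5.47% in Ly86.

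With each cell thinned to 5000 UMIs, 48.4% of 2097 and 28.9% of 2921 Car1 cells held a Cox6b2 UMI, and 76.5% and 76.2% of Hba-a2 cells. In Pf4 cells the thinned shares were 23.9% and 7.13%. The unthinned shares were 74.4% and 48.5% in Car1, 93.9% and 91.8% in Hba-a2 and 59.9% and 18.4% in Pf4. As a comparison for RNA free in the droplets, the Ltf class had 7.32% and 3.21% of thinned cells with a Cox6b2 UMI (28.0% and 9.05% unthinned, at a median of 11545 and 9352 UMIs per cell). In the library labelled Runx1 KO the thinned Pf4 share (exact interval 5.95% to 8.45%) was above that of Ltf (1.05% to 7.32%), with intervals that overlap.

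**Figure D3:**
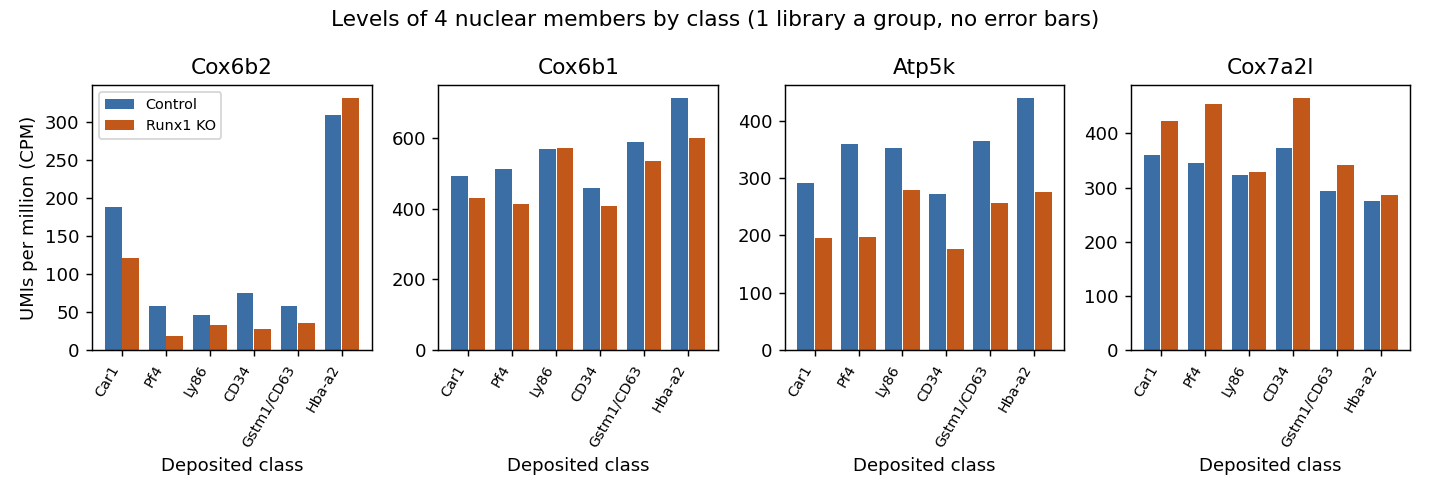
Level in CPM of Cox6b2, Cox6b1, Atp5k and Cox7a2l in the 6 compared classes, 1 bar a library. Cox6b2 is lower in the library labelled Runx1 KO in 5 classes and not in Hba-a2 (309 and 331 CPM), Atp5k is lower in all 6 and Cox7a2l higher in all 6.

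To set the 2 Cox6b genes side by side as genes, and Atp5k, the member of lowest ratio over all cells, and the erythroid-rich Cox6a1 beside them, the 250 bases before each RefSeq start (GRCm38.p6, minus strand, 5′ to 3′ in the gene's direction) are shown. Capitals mark matches, on either strand, of the 3 motifs searched: NRF1 (GCGCA, any base, GCGC), GABP or other ETS factors (CCGGAAG) and YY1 (AAGATGGCG), which are known for nuclear respiratory genes.
Cox6b1 upstream: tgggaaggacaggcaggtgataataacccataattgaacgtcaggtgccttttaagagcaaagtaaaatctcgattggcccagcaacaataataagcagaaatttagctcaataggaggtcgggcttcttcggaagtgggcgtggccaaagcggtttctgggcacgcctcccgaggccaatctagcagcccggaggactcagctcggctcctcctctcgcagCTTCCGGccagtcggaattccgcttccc
Cox6b2 upstream: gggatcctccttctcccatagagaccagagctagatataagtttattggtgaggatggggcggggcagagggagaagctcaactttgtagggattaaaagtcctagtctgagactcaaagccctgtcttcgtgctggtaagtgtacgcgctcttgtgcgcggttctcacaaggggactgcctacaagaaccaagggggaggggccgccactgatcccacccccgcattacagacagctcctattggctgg
Atp5k upstream: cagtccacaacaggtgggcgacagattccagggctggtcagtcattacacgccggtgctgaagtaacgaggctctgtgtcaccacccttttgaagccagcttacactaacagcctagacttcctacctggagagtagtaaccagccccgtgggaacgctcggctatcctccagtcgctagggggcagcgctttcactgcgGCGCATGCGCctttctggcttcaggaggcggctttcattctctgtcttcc
Cox6a1 upstream: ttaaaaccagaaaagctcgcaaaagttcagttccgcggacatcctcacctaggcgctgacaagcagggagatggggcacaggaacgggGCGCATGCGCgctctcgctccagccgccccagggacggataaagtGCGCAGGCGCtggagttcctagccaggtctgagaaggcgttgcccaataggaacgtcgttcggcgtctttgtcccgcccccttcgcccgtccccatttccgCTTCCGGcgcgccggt
They lie at chr7:30626115-30626364, chr7:4753095-4753344, chr5:108434400-108434649 and chr5:115348959-115349208. Cox6b1 has the ETS letters, read on the other strand as CTTCCGG, 28 bases before its start, Atp5k the NRF1 letters 50 bases before it, Cox6a1 both kinds, and none of the 3 motifs was found in the stretch of Cox6b2.

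Over windows of 300 bases (250 before to 50 after the start), 77 of the 93 nuclear members matched an entry. The NRF1 letters were in 26.0% of them, against 15.1% of the genes measured over all cells and 5.19% of all genes in the table, protein-coding or not. The YY1 letters were in 10.4%, 4.71% and 1.64%, and the ETS letters in 23.4%, 25.3% and 9.93%. These are matches of letters, not sites.

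A second tissue-restricted form, Cox6a2, the heart and muscle form of subunit VIa, had the most unequal counts. It had 714 UMIs in Control and 18 in the library labelled Runx1 KO, below the level needed for a ratio here. In Ly86, 192 of 1326 Control cells (14.5%) held a UMI, against 8 of 553 (1.45%), and after thinning 4.21% and 0.370%. The erythroid Car1 class, taken as background, had 9 of 2210 and 0 of 3003 cells, with an exact upper bound of 0.123%. Its median depth was lower than that of Ly86, at 15393.5 and 14621 UMIs. Other classes lay between the 2 in Control: 14 of 306 and 0 of 137 Gstm1/Ly86 cells, 20 of 621 and 0 of 657 Gstm1/CD63 cells, and 34 of 1076 and 1 of 679 CD34 cells. The deeper Hba-a2 class had 1 of 294 and 0 of 318. Cox6a2 lies inside Itgad on the opposite strand, and without stated strand settings reads of the pair cannot be told apart. Cox4i2, the lung form of subunit IV, was found in 204 of 1326 (15.4%) and 107 of 553 Ly86 cells (19.3%). It was also in 33 of 306 (10.8%) and 14 of 137 (10.2%) Gstm1/Ly86 cells and in 70 of 1076 (6.51%) and 32 of 679 (4.71%) CD34 cells. In Hba-a2 it was in 0 of 294 and 0 of 318 cells, whose median depth was greater (51294.5 and 37146 UMIs, against 28550.5 and 26441 in Ly86). The muscle form Cox7a1 was at 1.10 and 0.694 CPM, and Cox7b2, Cox8b, Cox8c and Ndufa4l2 were at or near 0.

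The mitochondrial genes were level in sum. Over all cells they took 5.13% of UMIs in both libraries. Their median log2 ratio was -0.07 over all cells, -0.04 in Car1, -0.26 in Pf4, -0.04 in Ly86, -0.12 in CD34 and -0.10 in Gstm1/CD63, but 0.13 in Hba-a2. None of the 13 was at least 1.5-fold apart in any class.

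In Pf4 all 13 were below 0 (51.7% of all genes). There mt-Cytb was at 5302 and 4188 CPM and mt-Nd1, a complex I core subunit, at 2873 and 2391 CPM, while mt-Co1 was at 6949 and 6837 CPM and mt-Co2 at 8032 and 7715 CPM. In that class the complex I mt- genes summed to a ratio of 0.823 and the complex IV mt- genes to 0.976. In Hba-a2, mt-Nd1 was at 4152 and 4837 CPM, mt-Cytb at 5507 and 5945 CPM and mt-Co2 at 8623 and 10454 CPM, and 9 of 13 were above 0 (2039 of 4397 genes measured).

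The Hba-a2 value was smaller without cells rich in mt- RNA. Cells with at least 10% mt- UMIs were 3.74% and 13.5% of the Hba-a2 class. Among the 37 and 47 Hba-a2 cells with under 10000 UMIs the mt- share was 15.3% and 38.1%, and among the 212 and 127 cells with 40000 or more it was 5.66% and 5.81%. Over cells under 10% mt- UMIs the median was 0.025 in place of 0.13. In a mean over cells that gives each cell the same weight it was 0.65.

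Of the 4 mt- genes under 600 nt, 3 had the lowest ratios of the mt- genes over all cells. There mt-Atp8 was at 75.8 and 57.1 CPM (log2 ratio -0.36), mt-Nd4l at 208 and 155 CPM (-0.40) and mt-Nd3 at 1257 and 1050 CPM (-0.26), and all 3 were below 0 in all 6 classes, though as a mean over cells each was above 0 in Hba-a2, and mt-Nd3 there also with thinned cells or less the median of genes of like length. The other short one, mt-Nd6, was at 36.9 and 38.5 CPM (0.05). Among the longer ones, mt-Co2 was at 7706 and 8075 CPM, mt-Co3 at 10885 and 11267 CPM and mt-Atp6 at 10464 and 10941 CPM. The genes mt-Atp8 and mt-Atp6 share 1 transcript and overlap, as do mt-Nd4l and mt-Nd4, and mt-Nd6 lies opposite the end of mt-Nd5, so their separate values are uncertain.

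Over all cells, nuclear members with short transcripts also had lower ratios than those of middle length, but so did the few with the longest. The 26 nuclear members measured over all cells with a median coding transcript under 600 nt had a median log2 ratio of -0.17 and all were below 0. The 106 other genes of that length had a median of -0.16, with 77.4% below 0. From 600 to below 1000 nt the medians were -0.09 for 26 members and -0.02 for 491 other genes, and from 1000 to below 2000 nt -0.10 for 21 members and -0.01 for 1333 other genes. From 2000 to below 3000 nt they were -0.15 for 7 members, all below 0, and 0.01 for 993 other genes, and the 1 measured member of 3000 nt or more was at -0.35. Among short transcripts the members were close to other genes of their length, and among longer ones they were lower. Less the median of other genes of like length, the nuclear median over all cells was -0.070 in place of -0.12, and in Hba-a2 -0.057 in place of -0.14, and the members past 1.5-fold numbered 0 in Car1, 1 in CD34 and 0 in Hba-a2. In Ly86 the medians of nuclear members and other genes were -0.03 and -0.05 under 600 nt and 0.06 and 0.04 from 600 to below 1000 nt. They were 0.07 and 0.03 there from 1000 to below 2000 nt, and other genes of 3000 nt or more were at -0.06. The part of transcript length in the ratios was not tested.

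**Figure D4:**
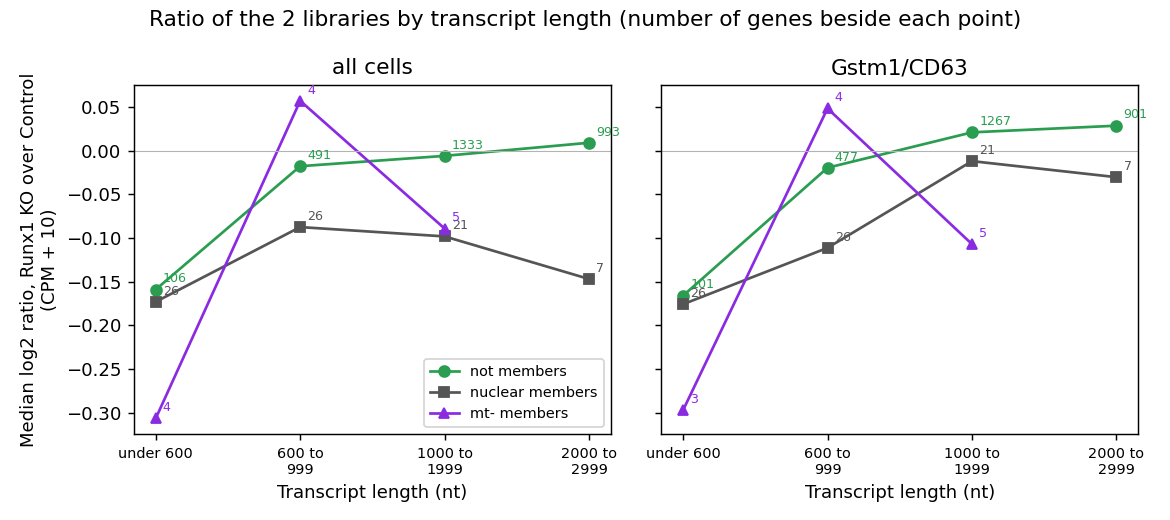
Median log2 ratio (CPM + 10), library labelled Runx1 KO over Control, by median coding transcript length over all cells (left) and in the Gstm1/CD63 class (right) for nuclear members, mt- members and other genes, with the number of genes beside each point. Below 600 nt, nuclear members (-0.17) and other genes (-0.16) lie together over all cells, and from 600 nt on the nuclear members lie lower. Points with 3 to 7 genes are thinly filled.

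Depth and erythroid marker level differed between the libraries in Car1. Car1 cells with 40000 or more UMIs were 10.8% of Control cells and held 29.2% of that class's UMIs, against 2.33% and 6.89% in the other library, and the summed level of 10 erythroid markers in the class was 1629 and 975 CPM. The nuclear share was higher in deeper cells of Control, from 1.96% of UMIs in Car1 cells under 10000 UMIs to 3.18% in those with 40000 or more. Under 10000 UMIs it was 1.96% in Control and 1.89% in the library labelled Runx1 KO, and from 10000 to below 20000 UMIs 2.15% and 2.26%. From 20000 to below 40000 UMIs it was 2.68% and 2.52%, and at 40000 or more 3.18% and 2.81%. With cells thinned to 5000 UMIs the Car1 median was -0.055 in place of -0.15, and as a mean over cells -0.067. The part of depth and of erythroid marker level in the Car1 difference was not tested.

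The nuclear share at like depth was lower in the library labelled Runx1 KO in all 4 depth ranges of Hba-a2 and in 3 of 4 of Pf4 and of Car1. Pf4 cells under 10000 UMIs had 1.93% and 2.08%, but those of 10000 to below 20000 UMIs had 2.49% and 2.35% and those of 20000 to below 40000 UMIs 2.88% and 2.43%, and Hba-a2 cells of 40000 or more UMIs had 3.46% and 3.16%. Cox6b2 in Car1 was at 126 and 86.0 CPM in cells of 10000 to below 20000 UMIs and at 275 and 255 CPM in those of 40000 or more. Summed megakaryocyte marker RNA was higher in the library labelled Runx1 KO outside the Pf4 class, with the 8 markers summing to 277 and 703 CPM in Car1, 133 and 545 CPM in CD34 and 24.4 and 118 CPM in Ly86, and its part in these ratios was not tested.

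**Figure D5:**
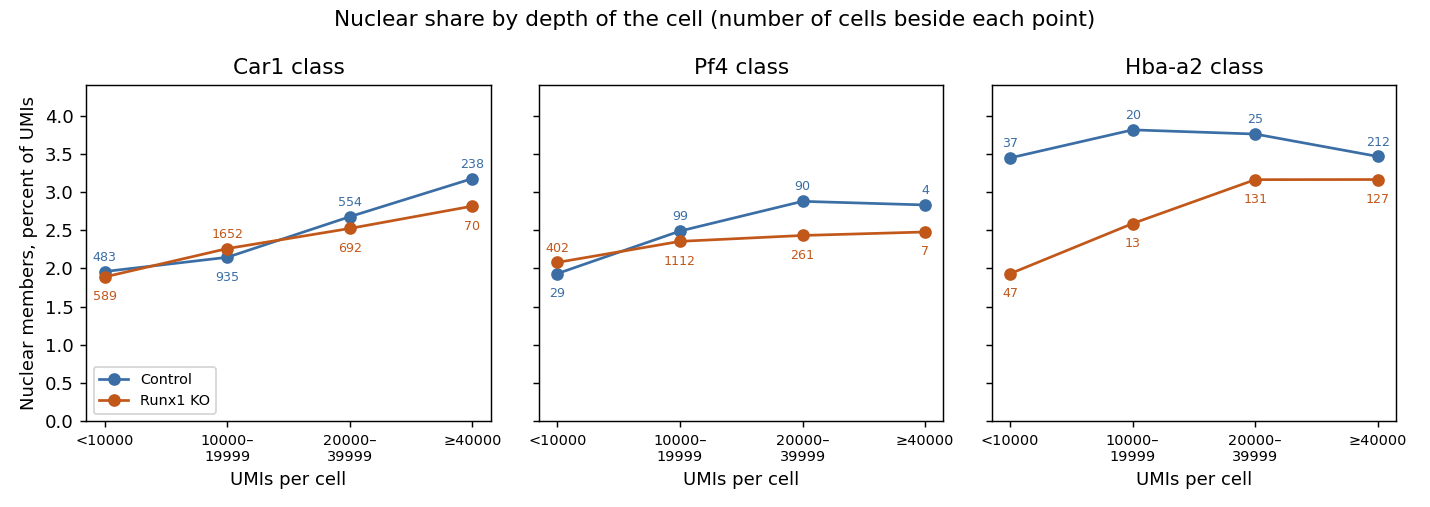
Percent of UMIs from nuclear members in Car1, Pf4 and Hba-a2 cells by UMIs per cell, Control in blue and the library labelled Runx1 KO in orange, with the number of cells beside each point. In Car1, Control is the lower library only from 10000 to below 20000 UMIs (2.15% and 2.26%). It is the higher one in the other ranges, most of all at 40000 or more (3.18% and 2.81%). Points with few cells, such as 4 and 7 in Pf4, are thinly filled.

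Other genes of mitochondrial energy supply were read from lists of non-members. Over all cells, 49.8% of all genes measured were below 0, the share to set beside each count below that names no class. Of 14 citrate cycle genes, all measured over all cells, 13 were below 0 with a median of -0.09, among them Idh2 at 227 and 186 CPM and Cs, the citrate synthase, at 73.1 and 64.9 CPM. By class, 14 were below 0 in Car1 (52.1% of all genes), 13 in Pf4 (51.7%) and 11 in Hba-a2 (53.6%). In Gstm1/CD63 8 were (43.6%), in CD34 7 (50.5%) and in Ly86 6 (51.1%). Idh2 had a ratio of CPM of 0.739 in Pf4, and from 0.940 in Car1 to 0.993 in Hba-a2 in the other classes. Of 78 mitochondrial ribosome genes, 72 were measured and 58 were below 0 (median -0.07), with Mrpl33 at 336 and 234 CPM. In Ly86 13 of 72 ribosome genes were below 0 (51.1% of all genes), with a median of 0.08, the same side as the nuclear members there. The counts were 64 of 71 in Car1 (52.1% of all genes), 62 of 70 in Pf4 (51.7%) and 71 of 75 in Hba-a2 (53.6%). In CD34 they were 48 of 72 (50.5%), and in Gstm1/CD63 37 of 72 (43.6%). Cytochrome c (Cycs), which carries electrons from complex III to IV, was at 303 and 205 CPM, and the electron transfer flavoprotein subunit Etfb at 375 and 480 CPM.

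The factors that read the mitochondrial genome were measured for 4 of 14 genes, all below 0, including Slirp (98.8 and 75.1 CPM) and the single-strand binding protein Ssbp1 (154 and 120 CPM). The nuclear regulators were measured for 4 of 9, with Nrf1 at 32.7 and 33.5 CPM and Myc at 157 and 114 CPM. Assembly factors of complexes III to V split evenly, with 6 of 11 measured below 0, Uqcc2 at 217 and 165 CPM and the ATP synthase factor Atpaf1 at 23.0 and 30.7 CPM. Of the 13 glycolysis genes measured, 11 were below 0 (median -0.12), but the hexokinases parted over all cells, Hk1 at 87.6 and 126 CPM and Hk3 at 51.3 and 33.7 CPM. Within classes Hk3 was at 75.9 and 60.5 CPM in CD34, 96.9 and 86.4 CPM in Gstm1/CD63 and 84.2 and 91.4 CPM in Ly86. The glycolysis genes below 0 ranged from 2 of 15 in Ly86 (51.1% of all genes) to 11 of 15 in Gstm1/CD63 (43.6%). No gene of these 7 lists was at least 1.5-fold apart over all cells.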

How the data were processed

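Counts were used as deposited: the authors' matrix holds UMI counts per gene and cell, and their cell annotation adds, per cell, a mitochondrial fraction, a ratio (its size factor) and other columns for library and class. Cell Ranger and mm10 are named in the submitters' processing notes, and no source used here gives versions, the strand setting or how classes were assigned. The library deposited as WT was taken as Control. UMIs were summed per library and class, a gene was measured at 30 CPM and 100 UMIs, and a pseudocount of 10 CPM was added to each log2 ratio. Intervals are exact conditional binomial (ratios) and exact Clopper-Pearson (shares) at 95%. Steps were tested on simulated data. Transcript lengths and locations came from GENCODE M21, and promoters from RefSeq (GRCm38.p6), matched by symbol or unique synonym. Named genes are all mt- genes, complex II, isoform families, the members of most extreme ratio over all cells and in each class, those varying most and least between classes (mean of at least 100 CPM), and up to 3 genes of each list. Python 3.11.15, R 4.3.3 and edgeR 4.0.16 (TMM factors in 1 of 7 alternatives) were used. Members and lists were chosen with earlier results of these data known. Ndufaf2, Ndufa5, Ndufb7 and Ndufv3 were named after their values were seen. One member that the rule names is not reported here.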

Additional observations from a re-analysis of the deposited data

Results flagged for a closer look

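The median of the mt- members was above 0 in the Hba-a2 class (0.13, median of the members' lower bounds 0.10) and below 0 in Car1 (-0.04), Pf4 (-0.26), CD34 (-0.12) and Gstm1/CD63 (-0.10), so the libraries differed in opposite directions between classes. The difference between classes was not tested. Cox6b2 was at 0.10 on the log2 scale in Hba-a2 and at -0.59 in Car1, -1.26 in Pf4 and -1.18 in CD34, and this difference was not tested either.

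Outside the 6 compared classes, the largest Control shares of cells with a Cox6a2 UMI were in 2 classes. These were 1 of few cells and 1 of cells without an annotation, and no ratio between libraries is given for them. Lower shares were found in others, such as Vpreb1 (2 of 21 Control cells, 9.52%) and Gstm1/Ly86 (14 of 306, 4.58%). In the Siglech class, named after a marker gene of plasmacytoid dendritic cells, 4 of 5 Control cells (80.0%) and the 1 cell of the library labelled Runx1 KO held a Cox6a2 UMI. Among Unannotated cells, 56 of 143 Control cells (39.2%) did. In the other library 0 of 175 Unannotated cells did, with an exact upper bound of 2.09%, but these cells need not be of the same types. A UMI of Siglech, looked at after the values of Cox6a2 were seen, was in 2 of those 143 Control cells, and both also held Cox6a2.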

How the results depend on the processing

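Every median kept its sign under the 7 alternative settings and the 2 chosen after seeing the data (equal class weight and like transcript length), except that the mt- median of Ly86 was 0.014 as a mean of per-cell CPM in place of -0.04. Nuclear medians ranged from -0.13 to -0.07 over all cells, -0.16 to -0.05 in Car1, -0.20 to -0.14 in Pf4, 0.02 to 0.05 in Ly86, -0.11 to -0.05 in CD34, -0.13 to -0.05 in Gstm1/CD63 and -0.24 to -0.06 in Hba-a2. No paired analysis was possible because there is 1 library a group and no shared replicate number.

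As a mean of per-cell CPM, the nuclear medians were -0.067 in Car1 and -0.24 in Hba-a2, the mt- medians -0.00029 over all cells, -0.36 in Pf4, -0.097 in CD34 and 0.65 in Hba-a2, and the members at least 1.5-fold lower numbered 0 in Car1, 3 in Pf4 and 1 in Gstm1/CD63. Thinned to 5000 UMIs, the Car1 medians were -0.055 (nuclear) and -0.063 (mt-), the mt- medians -0.083 over all cells and 0.33 in Hba-a2, and the lower members 1 over all cells, 1 in Ly86, 1 in Gstm1/CD63 and 2 in Hba-a2. In cells under 10% mt- UMIs the mt- medians were -0.090 over all cells and 0.025 in Hba-a2. With TMM factors the mt- median of Gstm1/CD63 was -0.14, and the lower members numbered 3 in Pf4 and 1 in Gstm1/CD63. That last count was also 1 with a pseudocount of 1 CPM and without mt- and globin UMIs in the denominator, and the Ly86 count was 1 with a minimum of 20 UMIs only. Less the median of other genes of like transcript length, the nuclear medians were -0.070 over all cells, -0.097 in Car1 and -0.057 in Hba-a2, the mt- medians -0.061 over all cells, -0.014 in Car1 and 0.16 in Hba-a2, and the lower members 0 in Car1, 1 in CD34 and 0 in Hba-a2. With equal weight of the 6 classes the mt- median over all cells was -0.050. The cause of these shifts was not tested.

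Of 328 ratios of named genes (each in 1 population), 50 changed sign less the median of like length, 34 with thinned cells, 26 as a mean of per-cell CPM, 13 with TMM factors, 8 in cells under 10% mt- UMIs and 4 without mt- and globin UMIs, and 5 of 47 with equal class weight. None of these was among the 8 past 1.5-fold, of which 4 were no longer past it less the median of like length, 2 as a mean of per-cell CPM, 1 thinned and 1 with TMM factors. With 1 library a group, no spread between animals is known. In Pf4, CD34 and Ly86 the medians of the nuclear members' counting bounds were -0.29 to -0.11, -0.17 to -0.04 and -0.02 to 0.07. They describe the counting error of a typical member and not that of the median. The Pf4 class of Control (222 cells) is the thinnest compared.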
